A study of Mus musculus with 9 samples.

Results

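Microglia, the resident macrophages of the brain, were followed in Neat1-/- frontal cortex through 32 genes: 10 surface receptors of the resting cell, 8 activating receptors, adaptors and leukocyte surface proteins, 3 transcription factors, 7 lysosomal, enzymatic or secreted proteins, and 4 complement components. The genes were chosen by name as microglial markers or complement, not by their counts, though with earlier results of these data known. Of the 43629 genes in the deposited count table, 19753 passed the filter on low counts, and all 32 were among them. The mice with the mutation were 4 female C57BL/6 Neat1-/- animals aged 3, 3, 4 and 2 months (replicates 1, 3, 4 and 5). Their allele carries lacZ and polyadenylation signals placed directly after the start site of Neat1, a long noncoding RNA that scaffolds nuclear paraspeckles. The controls were 5 female wild-type (WT) C57BL/6 animals aged 2, 2, 3, 4 and 4 months (replicates 1 to 5). The allele is in the germline, so all cells of the tissue carry it. RNA of the dissected frontal cortex was depleted of ribosomal RNA and sequenced, one library a mouse.

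Microglia depend on signals through the receptor Csf1r and on the transcription factors PU.1 (made from Spi1), Irf8 and Sall1. At rest they sample the tissue with fine processes and carry purine receptors, the fractalkine receptor Cx3cr1 and the marker Tmem119. They are also the main source of C1q in the brain. C1q, built of the chains C1qa, C1qb and C1qc, starts the classical complement pathway, which leads to C3 and is known for tagging synapses and debris for uptake. Trem2 and its signalling adaptor Tyrobp sense lipids and debris and are linked to a state in which resting genes fall and lysosomal genes rise. In RNA of whole tissue, fewer microglia and less RNA per microglial cell cannot be told apart.

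Total counts ranged over 51276067 to 64648856 per library. Levels are counts scaled to a library of 1000000 (CPM) after TMM adjustment, with the SD over mice, and levels of different genes are compared only per kilobase of annotated exon. Neat1 itself was at 7.38, 7.11, 8.36 and 9.72 CPM in the 4 Neat1-/- mice, against 60.8, 83.2, 119.9, 68.1 and 75.3 CPM in the 5 WT mice, so each library matched its label. For each of the 19753 genes edgeR's quasi-likelihood test compared the genotypes with age in months as a covariate, and p-values were adjusted over them by the Benjamini-Hochberg method. Replicates are separate mice.

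A pair of WT libraries stood apart and bear on most of the values that follow. Of the 32 genes, 21 (65.6%) had their lowest level of the 9 mice in WT replicate 3 or 4, as did 33.8% of all genes tested. The 2 libraries were not low throughout. The highest level was in WT replicate 3 for 18.5% of all genes and in WT replicate 4 for 13.2%. Among the 32 genes it was there for 2 and 0. The summed level of the 32 genes was 566.4, 558.0, 549.9 and 562.5 CPM in Neat1-/- mice, against 541.0, 571.0, 507.7, 498.1 and 554.4 CPM in WT mice. The sums overlapped, with WT replicate 2 the highest of the 9 mice and WT replicates 3 and 4 the lowest. Counts on intronic and unconfirmed gene models made up 0.234% and 0.212% of the total in WT replicates 3 and 4, against 0.113% to 0.136% in the other 7 libraries. WT replicate 4 also had the lowest summed level of 14 border macrophage genes, which were at 73.5 to 82.8 CPM in Neat1-/- mice, against 49.97 to 88.9 CPM in WT mice, and of 14 meningeal genes, at 162.1 to 218.0 CPM in Neat1-/- mice, against 70.4 to 331.5 CPM in WT mice. The part of these differences in the results was not tested. Values without this pair are given beside the main results and the fold changes they moved most. The pair was marked out in part by its low levels of these same 32 genes. Leaving it out therefore raises the WT mean of many of them by construction, and it leaves 3 WT mice. A smaller fold change without the pair is thus no independent check.

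**Figure D1:**
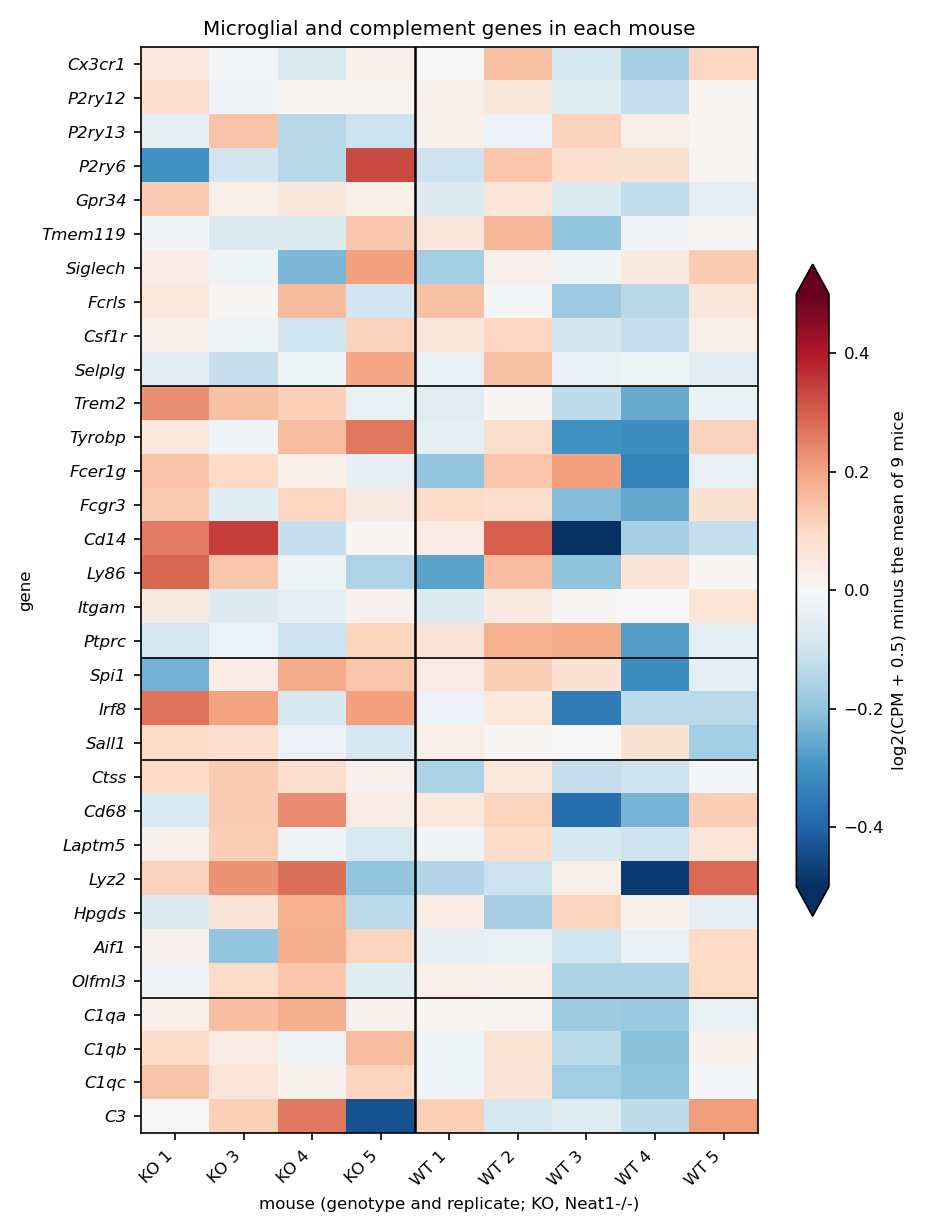
Levels of the 32 microglial and complement genes (rows) in each of the 9 mice (columns, Neat1-/- left of WT), with each gene centred on its own mean of log2(CPM + 0.5); colours are capped at 0.5 either way, and lines part the 5 functional groups. WT replicates 3 and 4 hold the lowest value of 21 of the 32 genes.

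No gene of the group passed the adjusted test for genotype. edgeR called 0 of 32, with the smallest adjusted p at 0.518, where 14 of all 19753 genes were called (0.0709%). DESeq2 and limma's voomWithQualityWeights called 0 of 32 as well. At an unadjusted p under 0.05, 6 of 32 (18.8%) were higher in Neat1-/- mice, where 4.27% of all genes were, and 0 of 32 lower, where 4.03% of all genes were (8.3% in either direction). These 6 were C1qa, C1qb, C1qc, Ctss, Trem2 and Irf8. The log2 fold change of Neat1-/- over WT was positive for 24 of 32 (75%), where 49.9% of all genes had a positive one, and its median was 0.066 over the 32 genes and -0.00023 over all genes. Without WT replicates 3 and 4, the count at an unadjusted p under 0.05 was 1 (Irf8), where 3.81% of all genes were higher, the median was 0.0058, and 18 of 32 were positive. Without WT replicate 4 alone the count was 3, where 2.4% of all genes were higher, and without Neat1-/- replicate 1 it was 2, where 2.39% were.

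**Figure D2:**
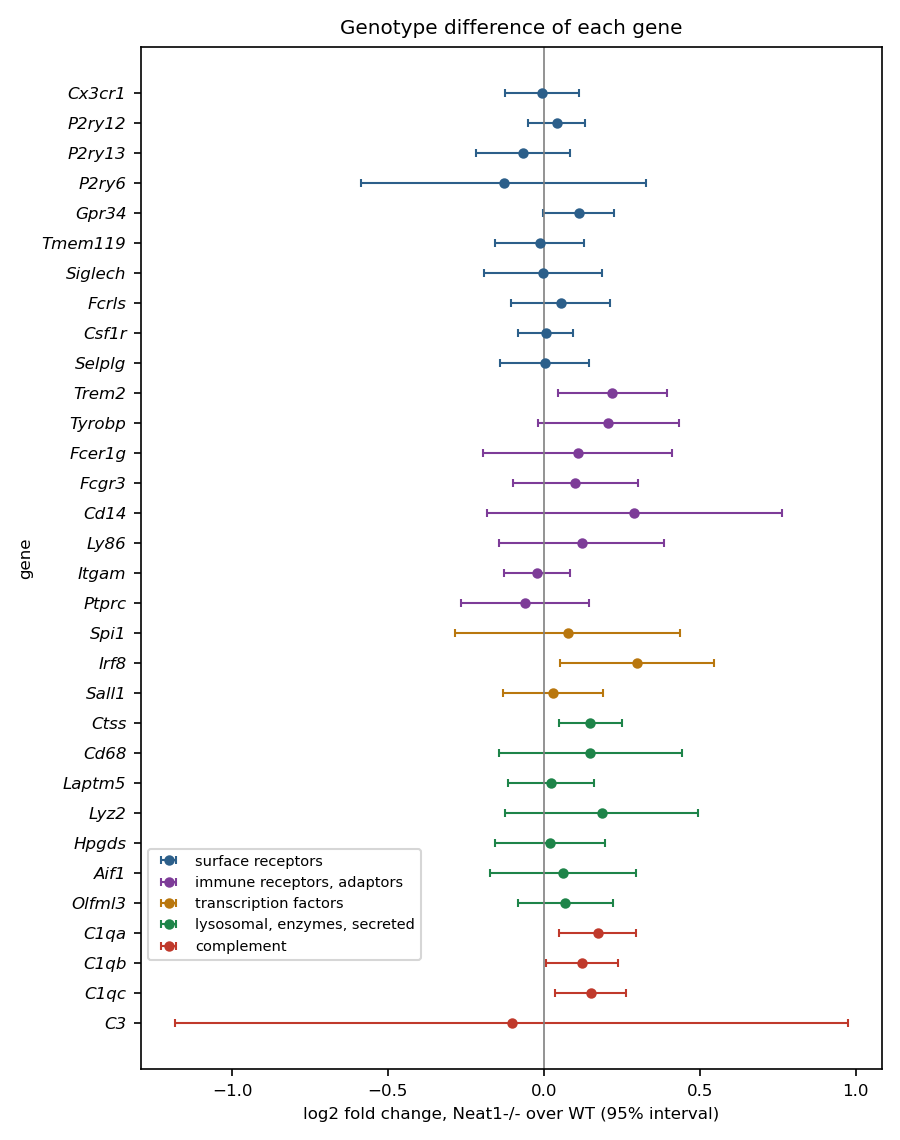
Fitted log2 fold change of Neat1-/- over WT (horizontal axis) of each of the 32 genes (vertical axis), with its 95% interval, coloured by functional group. The 10 surface receptors centre on 0 with a median of 0.00053, and the intervals of 6 genes, C1qa, C1qb, C1qc, Ctss, Trem2 and Irf8, lie above 0.

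The windows around the start sites of 4 of these genes are shown first, because the letters GAGGAA, the core of the site that PU.1 is known to bind, can be read in them. Each line runs 5′ to 3′ along the gene's strand, from 250 bases before the start to 50 bases after it, as given by RefSeq for GRCm38.p6, and capitals mark GAGGAA or, for a match on the other strand, TTCCTC. The windows are chr4:136886151-136886450 (minus strand) for C1qb, chr4:136892865-136893164 (minus strand) for C1qc, chr3:95526536-95526835 (plus strand) for Ctss and chr17:48346151-48346450 (plus strand) for Trem2.
C1qb: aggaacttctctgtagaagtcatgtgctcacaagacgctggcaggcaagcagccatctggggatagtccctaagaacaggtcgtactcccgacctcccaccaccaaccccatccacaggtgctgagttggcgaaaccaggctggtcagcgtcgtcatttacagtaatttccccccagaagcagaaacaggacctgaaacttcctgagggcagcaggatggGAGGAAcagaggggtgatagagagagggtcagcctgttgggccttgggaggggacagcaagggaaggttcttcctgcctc
C1qc: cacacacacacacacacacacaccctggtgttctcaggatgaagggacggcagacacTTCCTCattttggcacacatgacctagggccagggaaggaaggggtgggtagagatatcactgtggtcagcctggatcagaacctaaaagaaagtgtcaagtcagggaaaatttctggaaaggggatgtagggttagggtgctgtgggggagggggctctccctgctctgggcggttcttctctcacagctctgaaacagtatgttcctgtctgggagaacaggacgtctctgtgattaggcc
Ctss: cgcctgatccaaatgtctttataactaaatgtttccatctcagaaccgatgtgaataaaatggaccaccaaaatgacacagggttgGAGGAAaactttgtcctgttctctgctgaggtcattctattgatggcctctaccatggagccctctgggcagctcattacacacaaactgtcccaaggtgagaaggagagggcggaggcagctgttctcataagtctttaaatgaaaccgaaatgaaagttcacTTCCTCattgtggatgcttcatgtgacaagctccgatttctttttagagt
Trem2: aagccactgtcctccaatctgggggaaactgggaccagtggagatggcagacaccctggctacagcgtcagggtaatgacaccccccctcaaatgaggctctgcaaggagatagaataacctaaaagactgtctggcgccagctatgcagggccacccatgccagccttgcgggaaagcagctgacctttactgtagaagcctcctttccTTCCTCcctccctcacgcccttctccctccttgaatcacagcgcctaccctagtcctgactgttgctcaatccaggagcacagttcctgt
The match began at position -30 from the start in C1qb and, on the other strand, at -193 in C1qc and -40 in Trem2. Ctss had a match at -164 and one on the other strand at position 1. RefSeq windows were matched by symbol for 23 of the 32 genes, and 14 of these 23 (60.87%) held GAGGAA on either strand, as did 31.25% of 27025 genes and 28.28% of 32851 windows in all. The longer run GAGGAAGT, which contains GAGGAA, was in the windows of 3 of the 23 (C1qc, Ctss and Hpgds). It was in those of 3.69% of the 27025 genes and in 3.2% of all windows. A match describes the letters of the window and is not a measured binding site.

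The complement genes held the one member whose genotypes did not overlap. C1qa, the first chain of C1q, was at 32.7, 35.7, 36.5 and 32.6 CPM in Neat1-/- mice, against 32.3, 32.4, 28.4, 28.2 and 31.3 CPM in WT mice. The lowest Neat1-/- mouse lay just above the highest WT mouse, and WT replicates 3 and 4 were the lowest. Of all genes tested, 1.66% were wholly higher in Neat1-/- mice and 1.01% wholly lower. The log2 fold change of C1qa was 0.17 (SE 0.058), with an unadjusted p of 0.0105 and an adjusted p of 0.543 in edgeR. C1qc was at 31.5, 29.7, 28.8 and 30.8 CPM in Neat1-/- mice, against 28.0, 29.8, 25.2, 24.7 and 28.3 CPM in WT mice. Only WT replicate 2 reached into the Neat1-/- range. Its log2 fold change was 0.15 (SE 0.053), with an unadjusted p of 0.0145 and an adjusted p of 0.543. C1qb was at 28.3, 27.3, 26.3 and 29.5 CPM in Neat1-/- mice, against 26.1, 27.8, 24.1, 22.9 and 26.9 CPM in WT mice. Here the groups overlapped through WT replicates 2 and 5, and the log2 fold change was 0.12 (SE 0.053), with an unadjusted p of 0.0389 and an adjusted p of 0.594. Without WT replicates 3 and 4 the log2 fold changes were 0.093 for C1qa, 0.079 for C1qc and 0.056 for C1qb, with unadjusted p-values in edgeR of 0.0951, 0.125 and 0.287.

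The chains are made from neighbouring genes on the minus strand of chromosome 4 (GRCm38), with 2.85 kb between C1qa and C1qc and 3.62 kb between C1qc and C1qb. Their summed level was 92.4, 92.7, 91.6 and 92.9 CPM in Neat1-/- mice, against 86.4, 89.9, 77.6, 75.8 and 86.5 CPM in WT mice. The 4 Neat1-/- mice lay close together and above all 5 WT mice. The 3 WT mice left without replicates 3 and 4 were at 86.4 to 89.9 CPM. C1qa made up 35.1% to 39.9% of the sum in Neat1-/- mice, against 36.0% to 37.4% in WT mice, and the shares of the other chains overlapped between genotypes as well. C3, the component on which the complement pathways meet, was near the limit of detection, at 0.20, 0.26, 0.34 and 0.019 CPM in Neat1-/- mice, against 0.26, 0.16, 0.17, 0.14 and 0.31 CPM in WT mice. With 1 to 21 counts per library its 95% interval for the fold of Neat1-/- over WT ran over 0.440 to 1.97, and a difference inside that range was not detectable at this depth. Its log2 fold change was -0.10, and -0.51 without WT replicates 3 and 4.

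**Figure D3:**
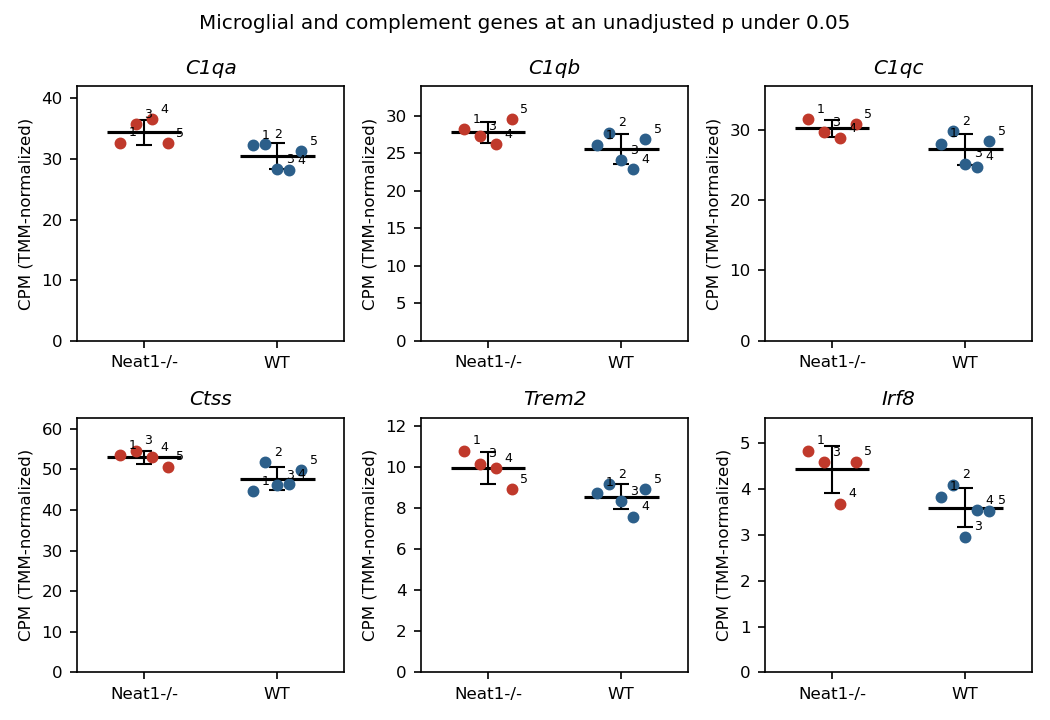
TMM-normalized CPM (vertical axes, from 0) of C1qa, C1qb, C1qc, Ctss, Trem2 and Irf8 in Neat1-/- mice (red, left) and WT mice (blue, right), with each point a mouse numbered by replicate, the wide bar the mean and the whiskers the SD. C1qa does not overlap between genotypes (32.6 to 36.5 against 28.2 to 32.4 CPM), and the other 5 genes do.

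The 10 surface receptors of resting microglia lay on both sides of 0. Of these, 5 had a positive and 5 a negative log2 fold change, 0 reached an unadjusted p under 0.05, and the 95% interval of 9 lay within 0.8-fold and 1.2-fold. With library size alone in place of TMM, Csf1r and Selplg turned negative, at -0.0046 and -0.0077. Csf1r, the receptor for the growth factors Csf1 and Il34, was at 84.9, 82.1, 77.8 and 90.4 CPM in Neat1-/- mice, against 86.9, 89.8, 78.2, 76.8 and 85.4 CPM in WT mice. The ranges lay one over the other. Its fold of Neat1-/- over WT was 1.00 with a 95% interval of 0.944 to 1.07. Exons of Hmgxb3 on the opposite strand cover 873 bases (15.12%) of the Csf1r exons, and whether the counting used strand is not given in the sources used here. Cx3cr1, the fractalkine receptor, was at 51.3, 49.4, 47.1 and 50.5 CPM in Neat1-/- mice, against 49.7, 55.0, 46.9, 44.1 and 53.3 CPM in WT mice. The Neat1-/- mice fell inside the WT range, and the interval of the fold was 0.917 to 1.08.

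P2ry12, the ADP receptor that guides microglial processes to injury, was at 40.9, 38.3, 38.9 and 39.0 CPM in Neat1-/- mice, against 39.4, 40.1, 37.0, 35.5 and 38.8 CPM in WT mice. Its groups overlapped except for the highest mouse, Neat1-/- replicate 1, and for WT replicates 3 and 4 at the low end. The interval of its fold was 0.966 to 1.10. Tmem119, a membrane protein used to tell microglia from other macrophages, was at 16.9, 16.2, 16.2 and 18.7 CPM in Neat1-/- mice, against 17.7, 19.1, 14.8, 16.8 and 17.1 CPM in WT mice. The interval of its fold was 0.898 to 1.09. Selplg, the ligand of P-selectin, was at 13.8, 13.2, 14.1 and 16.5 CPM in Neat1-/- mice, against 14.0, 15.9, 14.0, 14.1 and 13.8 CPM in WT mice. Of the WT mice 4 sat close together and replicate 2 above them. The receptors not yet named were Gpr34, which binds lysophosphatidylserine, the purine receptors P2ry13 and P2ry6, the lectin Siglech and the Fc receptor-like Fcrls, with log2 fold changes of 0.11 (unadjusted p = 0.0551 in edgeR, adjusted p = 0.607), -0.068, -0.13, -0.0018 and 0.054. P2ry6 was the least precise, with 47 to 74 counts per library and an interval of 0.666 to 1.26.

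Divided by the receptors, C1q lay higher in each Neat1-/- mouse than in any WT mouse. The summed C1q level divided by the summed level of the 10 receptors was 0.332, 0.344, 0.348 and 0.327 in Neat1-/- mice, against 0.312, 0.311, 0.302, 0.299 and 0.310 in WT mice. Without WT replicates 3 and 4 the 3 WT mice left were at 0.310 to 0.312. Leaving out mice cannot make separate groups overlap, so this adds no support. The mean of the ratio in Neat1-/- mice was 1.10 times that in WT mice. This ratio was formed after the single genes had been seen, so it is given as a description with no test. The receptor sum alone overlapped, at 262.9 to 283.9 CPM in Neat1-/- mice, against 253.1 to 289.3 CPM in WT mice. With single receptors as the divisor, the genotypes did not overlap for 3 of 10 (Cx3cr1, P2ry12 and Csf1r) and overlapped for the other 7.

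**Figure D4:**
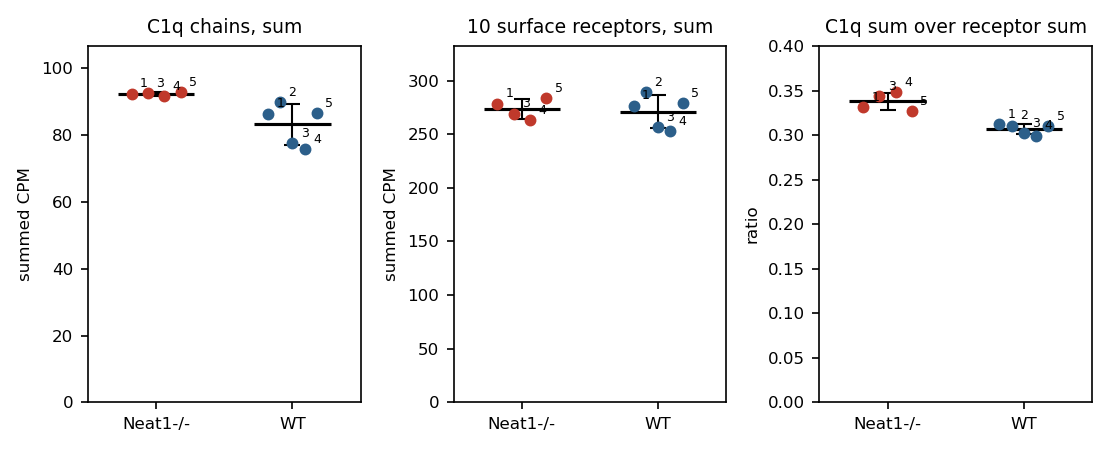
Summed CPM of the 3 C1q chains, summed CPM of the 10 surface receptors, and their ratio (vertical axes, from 0) in Neat1-/- mice (red, left) and WT mice (blue, right), with each point a mouse numbered by replicate, the wide bar the mean and the whiskers the SD. The C1q sum (91.6 to 92.9 against 75.8 to 89.9 CPM) and the ratio (0.327 to 0.348 against 0.299 to 0.312) do not overlap, and the receptor sum does.

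Among the activating receptors, adaptors and leukocyte surface proteins, 6 of 8 had a positive log2 fold change (median 0.12), and Trem2 reached an unadjusted p under 0.05. Trem2 was at 10.8, 10.2, 9.9 and 8.9 CPM in Neat1-/- mice, against 8.8, 9.2, 8.3, 7.6 and 8.9 CPM in WT mice. The overlap came from Neat1-/- replicate 5, which lay level with WT replicate 5 and under WT replicate 2. Its log2 fold change was 0.22 (SE 0.081), with an unadjusted p of 0.0174 and an adjusted p of 0.561 in edgeR, and it was 0.14 with an unadjusted p of 0.111 without WT replicates 3 and 4. Tyrobp, its adaptor, was at 9.8, 9.3, 10.5 and 11.4 CPM in Neat1-/- mice, against 9.05, 10.02, 7.52, 7.46 and 10.20 CPM in WT mice. WT replicates 3 and 4 lay well below the other 7 mice, and the log2 fold change of 0.21 (SE 0.10, adjusted p = 0.630) was 0.064 without them. The others were Fcer1g, the shared signalling chain of Fc receptors (log2 fold change 0.11), Fcgr3, a low-affinity IgG receptor (0.10), Cd14, a co-receptor for lipopolysaccharide (0.29), Ly86, the partner of the Toll-like receptor Cd180 (0.12), Itgam, the alpha chain of complement receptor 3 (-0.022), and Ptprc, the phosphatase CD45 (-0.059). None of these 6 reached an unadjusted p under 0.05 in edgeR. The log2 fold changes of Cd14 and Fcgr3 were 0.13 and -0.032 without WT replicates 3 and 4, and with single libraries left out that of Cd14 ran over 0.16 to 0.42. Itgam was the most even over the mice, at 19.7 to 21.3 CPM in Neat1-/- mice, against 19.7 to 21.6 CPM in WT mice, and Cd14 the least even of the 8, at 1.2 to 1.9 CPM in Neat1-/- mice, against 0.78 to 1.8 CPM in WT mice. A gene model that covers 68.67% of the Itgam exons on the same strand, Gm49368, is not in the count table.

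Of the transcription factors, Irf8 had the largest log2 fold change of the 32 genes. Irf8, an interferon regulatory factor that pairs with PU.1, was at 4.84, 4.60, 3.68 and 4.60 CPM in Neat1-/- mice, against 3.84, 4.10, 2.97, 3.54 and 3.53 CPM in WT mice. Neat1-/- replicate 4 lay among the WT mice and the other 3 above them. The log2 fold change was 0.30 (SE 0.11), with an unadjusted p of 0.0216 and an adjusted p of 0.570 in edgeR, and it was 0.25 with an unadjusted p of 0.0418 without WT replicates 3 and 4. Spi1 was at 1.43, 1.84, 2.09 and 2.01 CPM in Neat1-/- mice, against 1.85, 1.98, 1.89, 1.34 and 1.71 CPM in WT mice. Each group had a low mouse, and the interval of the fold, 0.821 to 1.35, was wide for a gene with 75 to 128 counts per library. Sall1, a repressor that holds microglial identity, was at 10.66, 10.56, 9.73 and 9.36 CPM in Neat1-/- mice, against 10.19, 9.9999, 9.95, 10.51 and 8.79 CPM in WT mice. The groups overlapped, with an interval of 0.913 to 1.14 for the fold.

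The 7 lysosomal, enzymatic and secreted genes all had a positive log2 fold change in this fit, with a median of 0.070, and Ctss had the smallest p of the 32 genes. Ctss, the lysosomal protease cathepsin S, was at 53.5, 54.6, 53.0 and 50.6 CPM in Neat1-/- mice, against 44.7, 51.8, 46.1, 46.4 and 49.8 CPM in WT mice. WT replicate 2 was the one WT mouse above the lowest Neat1-/- mouse. Its log2 fold change was 0.15 (SE 0.047), with an unadjusted p of 0.00729 and an adjusted p of 0.518 in edgeR, and without WT replicates 3 and 4 it was 0.11 with an unadjusted p of 0.0517. Aif1, the calcium-binding protein stained as Iba1, was at 4.4, 3.7, 4.9 and 4.7 CPM in Neat1-/- mice, against 4.2, 4.2, 4.0, 4.2 and 4.6 CPM in WT mice. The WT mice lay inside the wider Neat1-/- range, and the interval of the fold was 0.888 to 1.23. The other log2 fold changes were 0.15 for Cd68, a lysosomal glycoprotein, 0.19 for the lysozyme Lyz2, 0.070 for the secreted Olfml3, 0.022 for the lysosomal membrane protein Laptm5 and 0.020 for Hpgds, a prostaglandin D synthase. Without WT replicates 3 and 4 those of Lyz2, Cd68, Olfml3, Laptm5 and Aif1 were 0.025, -0.037, -0.036, -0.041 and 0.0066, and with single libraries left out that of Lyz2 ran over 0.035 to 0.29. Lyz2 has the near-identical copy Lyz1, at 0 to 5 counts per library, so how reads were split between them is uncertain.

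Per kilobase of exon, Ctss was the highest of the 32 genes, at 39.0 ± 1.2 CPM per kb in Neat1-/- mice and 35.1 ± 2.2 CPM per kb in WT mice (SD, n = 4 and 5). C1qa followed at 33.1 ± 2.0 CPM per kb in Neat1-/- mice and 29.3 ± 2.0 CPM per kb in WT mice, and C1qb at 25.6 ± 1.3 CPM per kb in Neat1-/- mice and 23.5 ± 1.9 CPM per kb in WT mice. The next in WT mice were P2ry12 (14.99 ± 0.75), Csf1r (14.4 ± 0.98), C1qc (14.1 ± 1.1) and Tyrobp (13.3 ± 2.0 CPM per kb), which lay within their SDs of each other. Cx3cr1 and Fcrls came after them at 11.1 ± 0.99 and 10.3 ± 1.00 CPM per kb in WT mice and also lay within their SDs. Spi1, Irf8, P2ry6, Ptprc and C3 were at the low end, at 0.65, 0.51, 0.37, 0.31 and 0.041 CPM per kb in WT mice. The length used joins the exons of all annotated transcripts, which for Ptprc comes to 18313 bases.

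CPM were also compared by exact permutation without the age term (two-sided, all splits of the mice into 4 and 5, smallest possible p 0.00794). The unadjusted exact permutation p-values were 0.0238 for C1qa, 0.0238 for Trem2, 0.0317 for Ctss, 0.0397 for Irf8, 0.0476 for C1qc and 0.119 for C1qb. Adjusted over all genes tested, they were 0.686 to 0.751. These 6 genes were picked by edgeR from the same 9 libraries, so the permutation is no independent support. Gpr34 had an exact permutation p of 0.0397. With WT replicates 3 and 4 left out (smallest possible p 0.0286) the exact permutation p-values were 0.0857 for Ctss, 0.114 for Trem2 and Irf8, 0.143 for C1qa and C1qc, 0.229 for Gpr34 and 0.400 for C1qb. All 4 Neat1-/- mice were above the WT mean for each of the 6 genes that edgeR had at an unadjusted p under 0.05. These genes were picked as higher in Neat1-/- mice, so this adds no support. It held for 9 of the 32 in all, but the share of all genes for which it held is not given here. WT replicates 3 and 4 lower the WT mean of many of the 32. The authors' normalized log2 table, which holds 28 of the 32 genes, had 1 of 28 wholly higher in Neat1-/- mice (C1qc), where 4.85% of its 13456 genes were. In it 17 of 28 differences (60.7%) were positive, with a median of 0.016, where 51.8% of all its genes had a positive one, with a median of 0.0029, and the values of C1qa overlapped between genotypes.

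Age was the other labelled variable, and 0 of 32 genes passed the adjusted test for it in edgeR, as did 0 of all 19753 genes. By the unadjusted threshold 2 of 32 (6.25%) were lower with age, where 3.12% of all genes were, and 0 of 32 higher, where 2.86% of all genes were (5.98% in either direction). Csf1r was lower by a log2 fold change of -0.077 per month (adjusted p = 0.820) and Ptprc by -0.14 per month (adjusted p = 0.820). The ages spanned 2 to 4 months, and 22 of the 32 log2 slopes were negative, where 49.1% of all genes had a negative one. With the replicate number as a block, 1 of the 32 genes was higher with age by the unadjusted threshold and 0 were lower. Neither Csf1r nor Ptprc reached it. The share of all genes for age in that fit is not given here.

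Genes that work with the 32 were read from the same fit, and edgeR called 0 of them at the adjusted threshold. Of 39 other microglial genes tested, 2 (5.13%) were higher by the unadjusted threshold and 0 lower, and the median log2 fold change was 0.016. Of all genes, 4.27% were higher and 4.03% lower. Without WT replicates 3 and 4, 1 of the 39 (2.56%) was higher, with a median of -0.0098, where 3.81% of all genes were higher. Among these 39 genes Mertk, a receptor for the uptake of dying cells, was at 60.1 ± 3.2 CPM in Neat1-/- mice and 55.9 ± 3.5 CPM in WT mice (SD, n = 4 and 5). Of 32 other complement components, receptors and regulators tested, 0 were higher and 2 (6.25%) lower, with a median of -0.021. Without WT replicates 3 and 4, 4 (12.5%) were lower, where 3.48% of all genes were. C5ar1, the receptor for the fragment C5a, was at 0.17 to 0.31 CPM in Neat1-/- mice, against 0.29 to 0.63 CPM in WT mice, with 11 to 39 counts per library and a log2 fold change of -0.85. Csmd2, a membrane protein with complement control domains, had a log2 fold change of -0.17.

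Of 28 ligands and partners of the receptors tested, 3 (10.7%) were higher by the unadjusted threshold and 0 lower, and the median log2 fold change was 0.082. Of all genes, 4.27% were higher and 4.03% lower. Without WT replicates 3 and 4, 1 (3.57%) was higher and 2 (7.14%) lower, where 3.81% and 3.48% of all genes were. Sirpa, the receptor for the signal Cd47, was at 529.0 to 551.0 CPM in Neat1-/- mice, against 489.2 to 527.9 CPM in WT mice. Its groups did not overlap. Apoe, a lipid carrier bound by Trem2 and made largely by astrocytes, was at 830.7 to 896.6 CPM in Neat1-/- mice, against 686.8 to 864.9 CPM in WT mice. The third was the nucleoside transporter Slc29a1, with a log2 fold change of 0.20. The log2 fold changes of Sirpa, Apoe and Slc29a1 without WT replicates 3 and 4 were 0.063, 0.073 and 0.12, with unadjusted p-values in edgeR of 0.0310, 0.0765 and 0.156. Of the ligands of Cx3cr1 and Csf1r, Cx3cl1, the fractalkine of neurons, averaged 694.1 ± 34.3 CPM in Neat1-/- mice and 720.1 ± 51.4 CPM in WT mice, and Il34 averaged 39.7 ± 1.8 CPM in Neat1-/- mice and 40.3 ± 3.6 CPM in WT mice (SD, n = 4 and 5).

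Of 19 genes of damage-associated microglia tested, 6 reached the unadjusted threshold as higher and 1 as lower, and the median log2 fold change was 0.071, where 4.27% of all genes were higher and 4.03% lower. When WT replicates 3 and 4 were left out, 2 were higher and 1 lower, with a median of 0.0080, where 3.81% of all genes were higher and 3.48% lower. With single libraries left out, 1 to 6 were higher, where 2.39% to 6.13% of all genes were. The lowest count came without Neat1-/- replicate 1. The count was 2 without WT replicate 4 or Neat1-/- replicate 4, and 3 without WT replicate 3 or Neat1-/- replicate 3. RNA of whole tissue does not show which cells the transcripts of this list came from. WT replicate 4 had the lowest summed level of the list. The chemokine Ccl6 was at 1.199, 1.101, 0.848 and 0.974 CPM in Neat1-/- mice, against 0.62, 0.66, 0.71, 0.71 and 0.57 CPM in WT mice. It did not overlap, and its log2 fold change was 0.65 (SE 0.20), with an unadjusted p of 0.00588 and an adjusted p of 0.490 in edgeR, and without WT replicates 3 and 4 it was 0.76 with an unadjusted p of 0.00460. The galectin gene Lgals3 had 0.26 to 0.38 CPM in Neat1-/- mice, against 0.11 to 0.26 CPM in WT mice, with 6 to 22 counts per library, and Ank, a pyrophosphate transporter, had a log2 fold change of 0.080. Ch25h, the cholesterol 25-hydroxylase, was the lower one, at 0.087 to 0.28 CPM in Neat1-/- mice, against 0.21 to 0.61 CPM in WT mice. Ctsd, Cd9 and Axl also reached the unadjusted threshold as higher, with log2 fold changes of 0.081, 0.15 and 0.097. Without WT replicates 3 and 4 these were 0.040, 0.13 and 0.083, and none reached it. Other known genes of that state, Cst7, Lpl and Spp1, had log2 fold changes of 0.0013, -0.14 and 0.071, and that of Spp1 was -0.14 without WT replicates 3 and 4. Of the 19 genes, 16 had a positive log2 fold change, where 49.9% of all genes did. Without WT replicates 3 and 4, 11 of the 19 did. Of 13 cytokines, chemokines and their receptors tested, Il1a reached the unadjusted threshold with a log2 fold change of 0.61, and 9 further genes of that list, Il6, Tnf and Ccl2 among them, had too few counts to test.

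**Figure D5:**
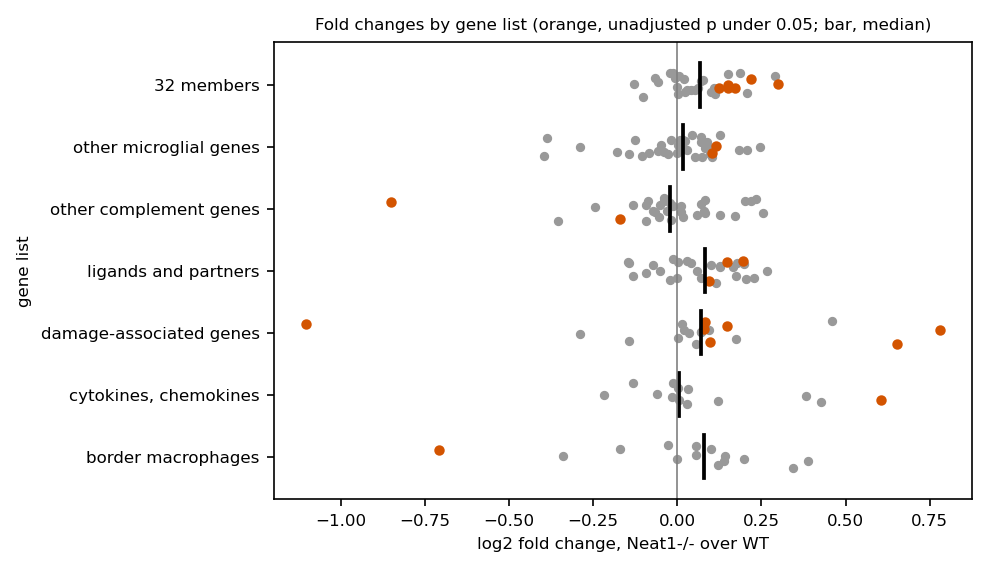
Log2 fold change of Neat1-/- over WT (horizontal axis) of each tested gene in the 32 microglial and complement genes and in 6 related lists (vertical axis); orange points have an unadjusted p under 0.05, and the bar is the median. The medians run from -0.021 (other complement genes) to 0.082 (ligands and partners).

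Markers of other cells the dissection could hold were read beside these results. The counts below are at the unadjusted threshold, where 4.27% of all genes were higher and 4.03% lower. With single libraries left out, 2.39% to 6.13% of all genes were higher and 2.68% to 8.58% lower. Of 14 border macrophage genes, 0 were higher and 1 lower (Folr2, at 0.20 to 0.32 CPM in Neat1-/- mice, against 0.34 to 0.61 CPM in WT mice), and Mrc1, their mannose receptor, was at 9.8 to 12.8 CPM in Neat1-/- mice, against 5.6 to 12.6 CPM in WT mice. Of the 14, 10 had a positive log2 fold change, and 4 did without WT replicates 3 and 4. Without WT replicate 5, 3 were higher and 1 lower. Of 14 meningeal fibroblast genes, 0 passed in either direction (median 0.13). Without WT replicates 3 and 4, 5 were lower (median -0.072), where 3.48% of all genes were. Without WT replicate 4 alone 4 were lower, and without WT replicate 5 alone 4 were higher. Of the blood leukocyte markers, 5 of 15 monocyte and granulocyte genes and 4 of 16 lymphocyte genes had enough counts to test, 0 of these passed in either direction, and Elane was at 0 in all 9 libraries. The monocyte and granulocyte list summed to 85.8 to 101.3 CPM in Neat1-/- mice, against 61.4 to 100.2 CPM in WT mice, most of it from the matrix genes Fn1 (59.6 to 74.9 CPM in Neat1-/- mice, against 33.4 to 68.4 CPM in WT mice) and Vcan (24.9 to 29.6 CPM in Neat1-/- mice, against 26.8 to 30.2 CPM in WT mice). The lymphocyte list summed to 31.2 to 37.6 CPM in Neat1-/- mice, against 31.0 to 38.2 CPM in WT mice, most of it from Ighm, an immunoglobulin heavy chain gene, at 29.1 to 35.7 CPM in Neat1-/- mice, against 28.7 to 36.0 CPM in WT mice. Of 12 mature oligodendrocyte genes, 12 had a negative log2 fold change (median -0.28) and 6 were lower by the unadjusted threshold, and the list summed to 1997 to 3046 CPM in Neat1-/- mice, against 2345 to 3698 CPM in WT mice. With single libraries left out that count ran over 1 to 11, with 1 without WT replicate 1 or 5 or Neat1-/- replicate 3 or 4, 3 without WT replicate 3, and 11 without WT replicate 2 or Neat1-/- replicate 1. Of 12 choroid plexus and ependymal genes tested, 4 were lower (median -0.59), with summed levels of 22.1 to 33.9 CPM in Neat1-/- mice, against 29.1 to 129.6 CPM in WT mice. The high end was WT replicate 3, and the other 4 WT mice were at 29.1 to 33.4 CPM. Without that library 1 of the 12 genes was lower, and the median was -0.12. The count was 2 without any one of the Neat1-/- libraries and 5 or 6 without any other WT library. Of 12 astrocyte genes 1 was higher (median 0.033) and of 12 neuronal genes 1 was lower (median 0.035). Of 12 endothelial genes 1 was higher (median -0.016), and of 5 erythrocyte genes 0 passed in either direction (median -0.72), though 4 were lower without Neat1-/- replicate 3, 3 without WT replicate 2 and 1 without WT replicate 5. The part of these cells in the values of the 32 genes was not tested.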

How the data were processed

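RNA of frontal cortex from 4 Neat1-/- and 5 WT mice was sequenced. The authors deposited raw read counts per Ensembl gene and log2 expression values, normalized and adjusted for covariates by the authors, for 13456 genes. The submitters' processing notes name STAR 2.5.0, HTSeq 0.8.0, limma and mm10, while the supplementary methods name TopHat and Bowtie; the strand setting of the counting is not given in the sources used here. Columns were matched to mice by the labels. Gene names, positions and exon lengths came from GENCODE vM21 (97.5% of IDs named, with 99.9% of counts).

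The deposited counts were filtered with filterByExpr by genotype, which left 19753 genes, scaled by TMM and tested with edgeR 4.0.16 (glmQLFit, glmQLFTest; R 4.3.3) with genotype and age in months, adjusted over all genes tested (common biological coefficient of variation 0.0922). The script was tested on simulated data. Counting error alone gave a coefficient of variation of 1.43% to 36.0% for the 32 genes. Alternatives were DESeq2 1.42.0, limma 3.58.1, other size factors, filters and age terms, a replicate block, and libraries left out; the counts of related lists and the permutation tests with libraries left out were added after seeing the data. Permutations were enumerated in full. Tables and figures were made in Python 3.11.15 (pandas 2.3.3, NumPy 2.4.6, Matplotlib 3.10.9).

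The members, related lists and tests were chosen with earlier results of these data known. Values in every mouse are given for members at an unadjusted p under 0.05 or without overlap, the C1q chains and C3, the defining genes of each role, and genes with an outlying mouse. From the related lists of immune genes up to 4 genes with the smallest unadjusted p under 0.05 are named. Genes of the choroid plexus, oligodendrocyte, astrocyte, neuronal and endothelial lists that passed that threshold are counted but not named. Further genes (Cx3cl1, Il34, Mrc1, Cst7, Lpl, Spp1, Ctsd, Cd9, Axl, Il6, Tnf, Ccl2, Fn1, Vcan, Ighm) were named after their values were seen. The values of 1 further gene of the other microglial list are not reported here, though it is in the counts and the median of that list. The ages and genotypes are those of the labels.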

Additional observations from a re-analysis of the deposited data

Results flagged for a closer look

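Selplg, the ligand of P-selectin, had 1 WT mouse far from the others. WT replicate 2 was at 15.9 CPM, where the other 4 WT mice were at 13.8 to 14.1 CPM, and its gap to the next mouse was 0.863 of the range of the group, above Dixon's 95% value of 0.71 for 5 samples. The 4 Neat1-/- mice were at 13.2 to 16.5 CPM. Of 64 groups of mice looked at (32 genes in each genotype), this was the 1 with such a mouse, where chance gives about 1 in 20, or 3.2.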

How the results depend on the processing

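Under 19 alternatives, 0 of the 32 genes passed the adjusted test for genotype (smallest adjusted p 0.125), and 0 passed it for age where age was a linear term. All genes called numbered 75 with DESeq2, 22 with limma and 76 with no filter on low counts, against 14, and 8 to 30 with each library left out. The genes of the group at an unadjusted p under 0.05 numbered 1 without WT replicates 3 and 4, and 2 to 7 with each library left out (2 without Neat1-/- replicate 1, 3 without WT replicate 4, 7 without WT replicate 2 or 5), and their median log2 fold change ran over 0.017 to 0.10. Without WT replicate 5, 6.13% of all genes were higher and 8.58% lower, and without WT replicate 2, 3.88% and 5.37%. In the main fit these shares were 4.27% and 4.03%. Ctss kept an unadjusted p under 0.05 in 18 of 19 alternatives, C1qa and Irf8 in 17, Trem2 and C1qc in 16 and C1qb in 10. It was lost without Neat1-/- replicate 1 for Trem2, C1qc and Irf8, without Neat1-/- replicate 3 for Irf8, without Neat1-/- replicate 4 for C1qa, and without WT replicate 4 for Trem2 and C1qc. For C1qb it was lost without any library other than WT replicate 2 or 5. The genes at an unadjusted p under 0.05 for age numbered 4 with limma and 1 to 6 with each library left out (6 without WT replicate 5, 1 without WT replicate 2 or Neat1-/- replicate 5), against 2. With the replicate block that count was 1 (higher with age). The shares of all genes for age in these fits are not given here, so these counts cannot be set against them. In counts added after seeing the data, the ligands and partners at an unadjusted p under 0.05 numbered 2 to 5 with each library left out (5 without WT replicate 5), against 3, the other microglial genes 1 to 5 (5 without WT replicate 5) and the other complement genes 1 to 5 (5 without WT replicate 5), against 2 each. Leaving out WT replicate 5 also raised the share over all genes, as given above. The 95% intervals of the fold lay within 0.8-fold and 1.2-fold for 17 of 32 genes, and C3, P2ry6, Cd14 and Spi1 were limited by their counts.

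Genes near 0 changed sign. The log2 fold change of Cx3cr1 was 0.0033 with limma and 0.00074 with age as a factor, that of Tmem119 0.037 with age as a factor, that of Siglech 0.026 with limma, 0.0036 with no filter, 2.3e-05 with no age term, 0.0017 with age as a factor and 0.010 without WT replicates 3 and 4, that of Csf1r -0.0046 with library size alone, -0.0049 with the CPM filter and -0.044 without WT replicates 3 and 4, that of Selplg -0.0083 with limma, -0.0077 with library size alone and -0.0079 with the CPM filter, that of Sall1 -0.00048 and that of Lck, a lymphocyte gene, 0.045 with age as a factor. Without WT replicates 3 and 4 it was -0.0064 for P2ry12, -0.055 for Fcrls, -0.032 for Fcgr3, -0.037 for Cd68, -0.041 for Laptm5, -0.036 for Olfml3, 0.064 for Lck and 0.038 for Alas2, an erythroid gene. With each library left out it ran over -0.049 to 0.042 for Cx3cr1, -0.064 to 0.013 for Tmem119, -0.087 to 0.082 for Siglech, -0.0039 to 0.10 for Fcrls, -0.021 to 0.039 for Csf1r, -0.056 to 0.040 for Selplg, -0.060 to 0.18 for Spi1, -0.022 to 0.075 for Sall1, -0.019 to 0.062 for Laptm5, -0.030 to 0.051 for Hpgds, -0.39 to 0.29 for C3 and -0.18 to 0.17 for Lck. The cause was not tested.

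Replicate numbers are shared by the genotypes, but the mice were not treated as pairs. The labelled ages differ for number 1 (2 months in WT, 3 in Neat1-/-) and number 5 (4 months in WT, 2 in Neat1-/-). The correlations of same-numbered deviations were 0.044, -0.045, 0.14 and -0.077 for numbers 1, 3, 4 and 5. Low correlations cannot exclude that same-numbered mice were handled together. With the number as a replicate block, 8 of the 32 genes were higher at an unadjusted p under 0.05, 0 were called, and 12 of all genes were called. The share of all genes at that unadjusted threshold in this fit is not given here, so the 8 cannot be set against it. The block also leaves fewer degrees of freedom than the main fit. The log2 fold changes of Cx3cr1, Tmem119, Siglech, Hpgds and Lck changed sign with the block, to 0.047, 0.016, 0.0067, -0.019 and 0.14.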
